A study of Oncorhynchus kisutch with 226 samples.

Results

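Hatchery and wild coho salmon smolts of the Capilano River were compared by the ratios of their liver RNA to a common reference. The members were all fish labelled as river smolts of the Capilano area from 2009, and they comprised 10 hatchery and 10 wild fish among the 226 fish of the series. Each fish was 1 array, and each array carried the liver RNA of 1 fish against a pool of the liver RNA of all fish. Other groups were used only where a comparison needed fish outside the Capilano River. They were 9 hatchery smolts of the Chehalis River, 10 hatchery smolts of the Puntledge River and 7 wild smolts of the Salmon River from 2009, 14 wild fish from the spring of 2009 in the southern Strait of Georgia, and the 13 hatchery and 17 wild summer and fall fish of 2009 that carry the same stock label as the Capilano smolts (S_Main). The Capilano smolts were sampled in fresh water, the labels name no treatment for any fish, and how origin was determined is not stated. Sex was recorded for 4 of the 20 Capilano fish, all of them wild, and was not used. By the stock labels, Chehalis and Salmon River fish were Fraser and Puntledge fish ECVI. The spring fish were mixed, with 8 ECVI, 4 Fraser, 1 Chilliwack_R and 1 Puget_Sound fish and none of the Capilano label. The ratios are given on a log2 scale with fish over pool, so a positive value is a level above that of the pool. Neither the base nor the numerator is stated by the submitters. Across 16802 probes the slope of a probe's mean on its variance was -0.364, where fish over pool on a log2 scale gives -0.347, so the direction is likely and not stated. If it were the other way, every "higher" would read "lower".

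Smolting is the change by which a young salmon of the river becomes a fish that can live in seawater. It turns silvery and slimmer, and hormones such as thyroxine, cortisol and growth hormone act on gill, gut and liver. The liver makes most plasma proteins, stores glycogen and fat and releases them, and in fish it also answers growth hormone with insulin-like growth factor. Hatchery smolts grow on prepared feed and are released for migration, while wild smolts have fed on river prey. The files and tables used here do not pair the probes with genes, so probes are named by their array column and row (C092R077, for example, carries its column after the C and its row after the R), no pathway is named, and the liver identity of the samples rests on the label.

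Hatchery smolts were longer and heavier than wild smolts, and heavier for their length. Condition factor, 100 times the mass in grams over the cube of the fork length in cm, separated the origins completely. It ran from 1.06 to 1.3 in hatchery smolts with a median of 1.14, and from 0.875 to 1.05 in wild smolts with a median of 0.974. Its mean was 1.17 ± 0.0741 in hatchery smolts and 0.965 ± 0.0547 in wild smolts (SD, n = 10 each, two-sided permutation test, adjusted p = 0.00018 over the 3 size measures). Fork length, from snout to tail fork, overlapped between the origins. It was 11.6 ± 0.677 cm in hatchery smolts, within 10.3 to 12.5 cm, and 10.3 ± 1.33 cm in wild smolts, within 7.4 to 12.7 cm (permutation test, adjusted p = 0.0113). Mass was 18.2 ± 3.4 g in hatchery smolts and 11 ± 4.13 g in wild smolts (permutation test, adjusted p = 0.00105). The shortest and the longest of the 20 fish were both wild. Without the shortest the differences kept their direction and passed the test.

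**Figure D1:**
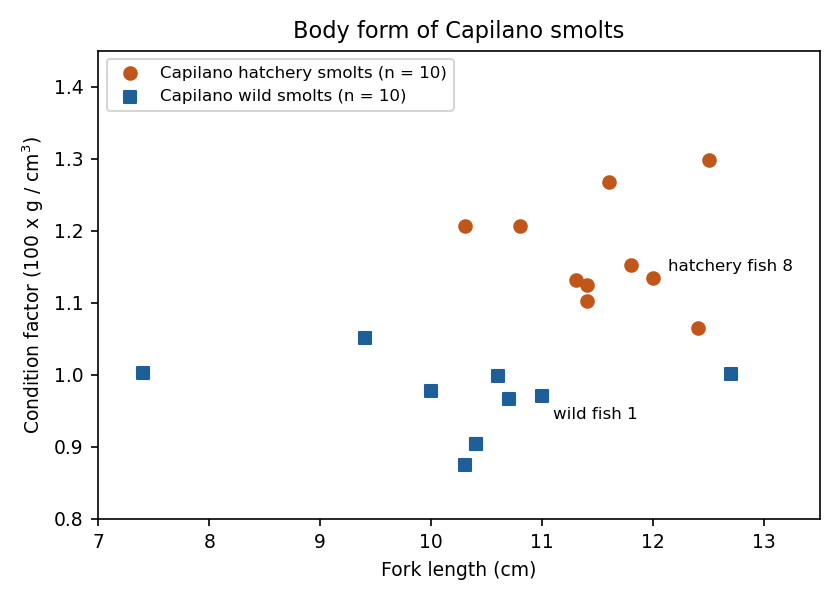
Fork length in cm (horizontal axis) against condition factor (100 times g over cm cubed, vertical axis) of 10 hatchery smolts (circles) and 10 wild smolts (squares), 1 point per fish. Hatchery smolts lie between 1.06 and 1.3 and wild smolts between 0.875 and 1.05, while their fork lengths overlap, and wild fish 3 and 4 share 1 point.

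The arrays gave 21336 ± 2643 measured probes in hatchery smolts and 21068 ± 2752 in wild smolts of 43567 in the table, and this number did not differ beyond the spread between fish (permutation test, p = 0.824). The 10 hatchery smolts lay on 5 slides and the 10 wild smolts on 4 others, and no slide held both origins. Ratios of single arrays spread more widely in hatchery smolts, with an SD over probes of 0.887 ± 0.0905 in hatchery smolts and 0.775 ± 0.0874 in wild smolts (permutation test, p = 0.0128). Of 18 control rows in the second deposited table, 6 were measured in at least 16 of the 20 fish. Their mean log2 ratio was 0.513 ± 0.181 in hatchery smolts and 0.123 ± 0.102 in wild smolts (permutation test, p = 8e-05). The same mean was 0.47 ± 0.08 in Chehalis hatchery smolts, 0.41 ± 0.24 in Puntledge hatchery smolts and 0.29 ± 0.26 in Salmon River wild smolts. It was 0.42 ± 0.35 in the wild spring fish, and at sea 0.37 ± 0.11 in hatchery and 0.42 ± 0.21 in wild fish, so the other wild groups averaged above the Capilano wild smolts. What the control rows detect is not given in the sources used here, and their part in the results below was not tested beyond the covariate fit given there. The permutation tests of these array measures took each array as a separate unit, though arrays of an origin share slides. Their p-values therefore make no allowance for differences between slides.

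Agreement of the liver profiles followed origin in 18 of the 20 fish. Over 13264 probes measured in all 20 fish, 9 hatchery smolts correlated with the mean of the other hatchery smolts at 0.81 to 0.87 and with the wild mean at -0.08 to 0.25. Similarly, 9 wild smolts correlated with the mean of the other wild smolts at 0.61 to 0.83 and with the hatchery mean at -0.08 to 0.09. Using only fish of other slides for the own-origin mean gave 0.81 to 0.87 in the 9 hatchery smolts and 0.53 to 0.83 in the 9 wild smolts. The remaining fish went against their labels. Hatchery fish 8 correlated at 0.34 with the other hatchery smolts and at 0.51 with the wild smolts. Wild fish 1 correlated at 0.78 with the hatchery smolts and at 0.02 with the other wild smolts. On the leading axis of variation among the 20 profiles, which held 56.1% of their variance, hatchery fish 8 stood at -19, against 46 to 70 for the other hatchery smolts, and wild fish 1 at 44, against -80 to -48 for the other wild smolts.

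**Figure D2:**
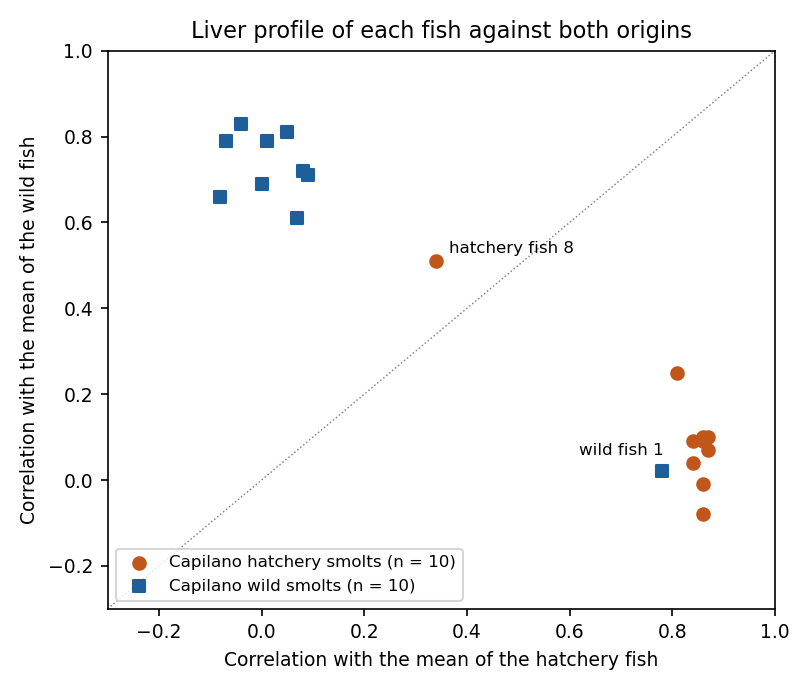
Correlation of each fish's log2 ratios over 13264 probes with the mean of the hatchery smolts (horizontal axis) and of the wild smolts (vertical axis), the fish itself left out, with the dotted line marking equal values. Wild fish 1 lies with the hatchery smolts, and hatchery fish 8 lies above the line, nearer the wild smolts.

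The body form of these 2 fish did not follow their profiles. Hatchery fish 8 had a condition factor of 1.135, within the hatchery range, and wild fish 1 one of 0.97, within the wild range. Their probes were also mixed. Among the 13264 probes, 2922 separated the other 9 hatchery smolts from the other 9 wild smolts without overlap. Hatchery fish 8 lay on the hatchery side of the midpoint in 914 of these (31.3%), and wild fish 1 on the wild side in 371 (12.7%). Each of the other 18 fish, left out in the same way, lay on its own side in 84.8% to 97.1% of the probes that parted the rest. Both fish lay on the side of their label in 93 probes and both lay on the other side in 1730 (59.2%). The totals of called probes below are therefore given with all 20 fish and without these 2, which were picked by their ratios after the data were seen. Counts by a size of 2 or more, overlaps with other rivers and correlations of group means are given for all fish.

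Hatchery and wild Capilano smolts differed in many of the probes tested. No slide held both origins and condition factor did not overlap between them, so the differences cannot be assigned to origin alone. With limma, 4766 of 16802 probes (28.4%) had a higher ratio in hatchery smolts at an adjusted p below 0.05 and 4738 (28.2%) a lower one, together 56.6% of the probes tested. Differences of at least 1 on the log2 scale were found for 3742 of them, 1462 higher and 2280 lower in hatchery smolts (22.3%). The falls were larger than the rises. Differences of at least 2 numbered 45 for probes higher in hatchery smolts and 471 for probes lower, and differences of at least 3 numbered 3 and 96. Without hatchery fish 8 and wild fish 1, 10801 probes were called (64.3%), and 2181 higher and 2847 lower probes differed by at least 1. Full separation of the 10 hatchery from the 10 wild smolts was rarer, with 0.769% of 13264 probes higher and 0.354% lower in every hatchery smolt than in any wild smolt, together 1.12%. Without the 2 fish the balance turned, with 1217 probes higher and 1705 lower, together 22%. The median SD per probe was 0.43 between hatchery smolts and 0.46 between wild smolts, and it was 0.38 and 0.39 without the 2 fish.

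C092R077 was the probe with the largest rise in hatchery smolts among those measured in all 20 fish and called with and without fork length. It ran from -0.33 to 3.9 with a median of 2.19 in hatchery smolts, and from -2.75 to 0.5 with a median of -1.33 in wild smolts. Of the hatchery smolts 8 lay above every wild smolt. The log2 difference was 3.36, a 10.3-fold higher ratio (SE 0.5, limma adjusted p = 1.95e-05). C036R006 behaved much like it. Its ratios ran from 0.3 to 4.33 with a median of 3.17 in hatchery smolts, and from -1.24 to 1.36 with a median of -0.37 in wild smolts. The groups overlapped, and 8 hatchery smolts lay above every wild smolt. Its log2 difference was 3.14, an 8.8-fold higher ratio (SE 0.48, limma adjusted p = 2.73e-05). In both probes hatchery fish 5, 7 and 9 were the lowest hatchery smolts and wild fish 1 was the highest wild smolt, while hatchery fish 8, at 2.07 and 3.21, stood in the middle of the hatchery smolts.

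C192R100 had the largest fall among probes chosen in the same way. Its ratios ran from -6.65 to 0.41 with a median of -5.61 in hatchery smolts, and from -3.61 to 1.58 with a median of 1.11 in wild smolts. The value of 0.41 was that of hatchery fish 8 and the value of -3.61 that of wild fish 1, and the other 9 hatchery smolts, at -5.15 or below, lay below all wild smolts. The log2 difference was -5.59, a 48.1-fold lower ratio in hatchery smolts (SE 0.71, limma adjusted p = 8.64e-06). Without the 2 fish it was -6.64 (SE 0.22). Those fish held the values that stood apart in this probe, so the smaller SE follows from leaving them out and tests nothing. C011R100 fell by 5.14 on the log2 scale, a 35.3-fold lower ratio (SE 0.83, limma adjusted p = 4.2e-05). It ran from -3.04 to -1.09 with a median of -2.17 in hatchery smolts, and from -2.72 to 5.23 with a median of 4.14 in wild smolts. Here hatchery fish 8 was at -1.26 and wild fish 1 at 4.17, each with its own origin. The wild smolts that lay among the hatchery smolts were instead wild fish 2, at -1.86, and wild fish 3, at -2.72. The same 2 wild smolts stood apart in C002R063, a probe at 0.6 to 3.7 in hatchery smolts. They had 2.53 and 2.56 there, and the other wild smolts lay at -0.21 or below.

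**Figure D3:**
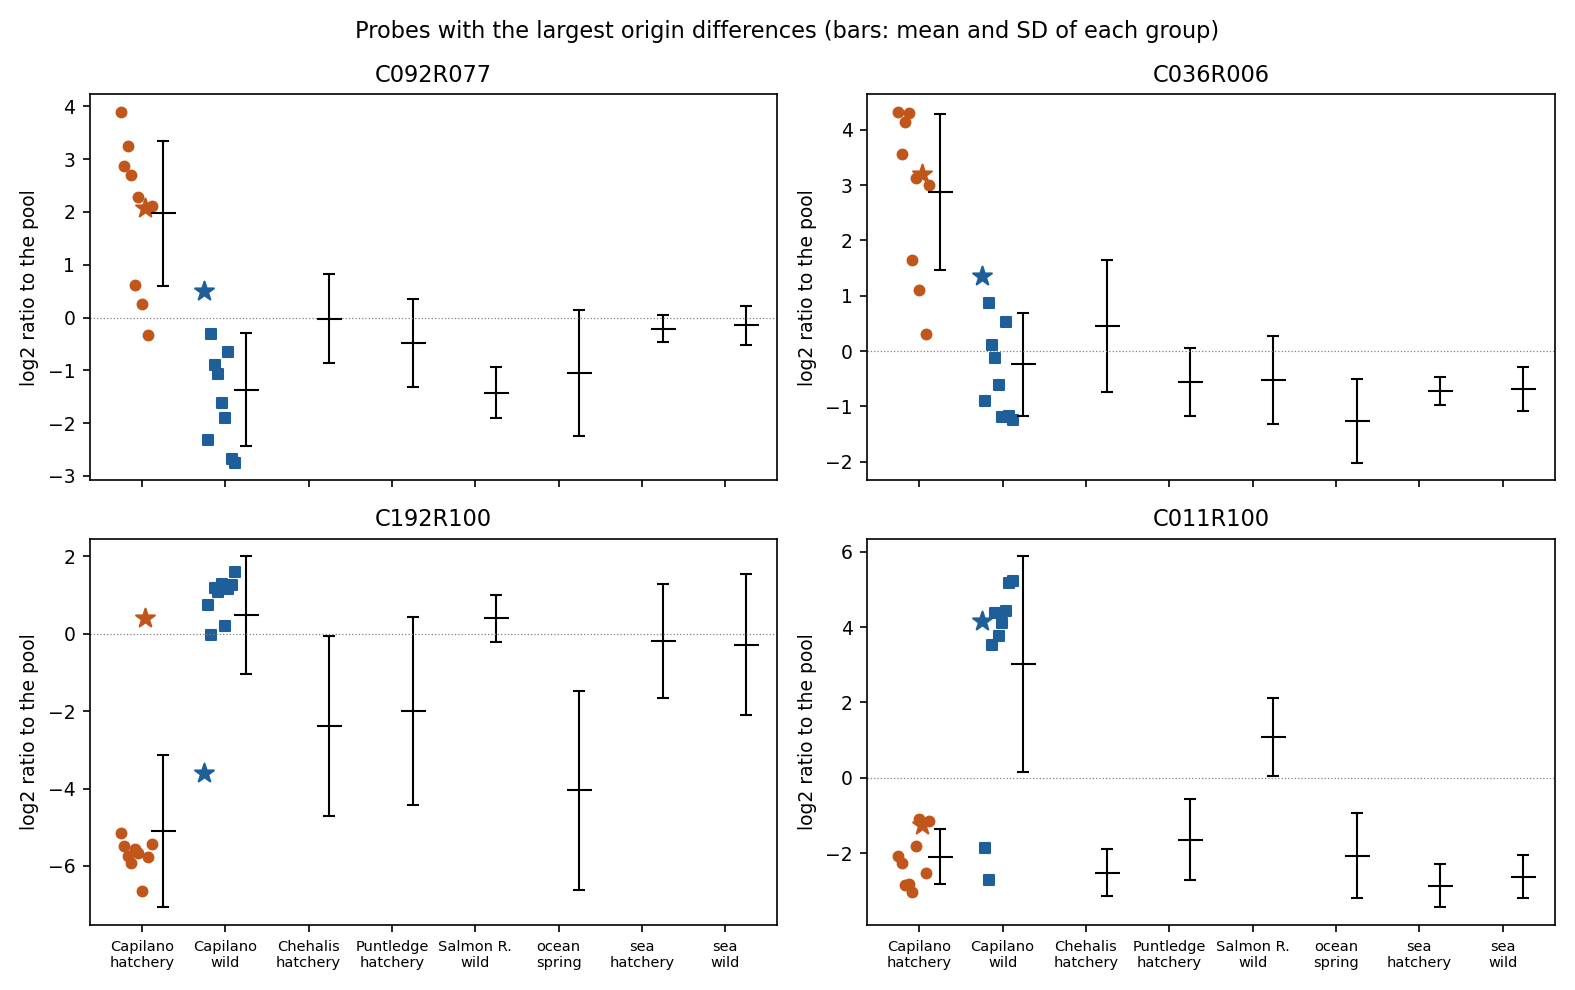
Log2 ratio to the pool of C092R077, C036R006, C192R100 and C011R100 in each Capilano smolt (circles for hatchery, squares for wild, stars for hatchery fish 8 and wild fish 1), with the mean and SD of 8 groups as black marks. The last marks on the right are summer and fall fish at sea of the same stock label, 13 hatchery and 17 wild. The stars lie with their own origin in C011R100 and on the other side in C192R100.

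Size was then set against origin. With fork length as a covariate, hatchery smolts had higher ratios in 4160 and lower ones in 4228 of 16802 probes (49.9% called), and 8001 of the 9504 calls made without length stayed with the same direction (84.2%). Without the 2 fish 10120 were called (60.2%), and 9698 of 10801 calls stayed (89.8%). The 4 probes above were chosen among probes called with and without fork length, so their calls with length follow from that choice and test nothing. Their differences with length were 3.34 for C092R077, 3.04 for C036R006, -5.53 for C192R100 and -5.55 for C011R100 (limma adjusted p between 0.000108 and 0.000377). For the slope on fork length at equal origin no probe passed limma's test (0% of 16802), and 921 had an unadjusted p below 0.05. For the difference of the slopes between the origins no probe of 16801 passed it either (0%), with 634 at an unadjusted p below 0.05. The shared length range of 10.3 to 12.5 cm held 10 hatchery and 6 wild smolts. Restricting the fish to it left 7124 calls of 16802 probes, and 9618 of 16800 (57.2%) without the 2 fish.

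With condition factor as a covariate hatchery smolts had higher ratios in 50 probes and lower ones in 24 (0.44%), and 4486 had an unadjusted p below 0.05. The number called was 5362 (31.9%) without hatchery fish 8 and wild fish 1. Those 2 fish were picked because their ratios went against their labels, so this does not show what the low count rested on. The median size of the origin difference over all probes was 0.53 with condition factor and 0.56 without it. With all 20 fish none of the 4 named probes was called, with differences of 2.65 for C092R077, 2.28 for C036R006, -5.19 for C192R100 and -4.68 for C011R100 (limma adjusted p between 0.0639 and 0.123). Condition factor does not overlap between the origins, so over all 20 fish origin and condition factor cannot be told apart. At equal origin no probe followed condition factor by limma's test (0%), and 360 had an unadjusted p below 0.05. With the control row mean as a covariate 14 probes of 16802 were called higher and 11 lower in hatchery smolts, together 25. This mean ran from 0.24 to 0.7 in hatchery smolts and from -0.02 to 0.27 in wild smolts. Origin and this mean can therefore hardly be told apart. Without the 2 fish 4964 probes were called (29.5%), and the choice of those fish by their ratios limits this count as well.

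Slides could be linked through other fish. Of the hatchery smolts 6, on 4 of their 5 slides, shared a slide with a total of 10 ocean fish, and of the wild smolts 6, on 3 of their 4 slides, with a total of 6 ocean fish. In a limma fit of all 226 arrays with every group and every slide as fixed terms, the origin difference rests on those 12 smolts and their slide mates. It called 1882 of 16794 probes as higher and 2418 as lower in hatchery smolts (25.6%). Of these 4300 probes, 4093 (95.2%) were also called with the same direction when slide was a random block. That fit called 56.6% of all probes tested. Among its 9504 calls 98.4% had the same sign with the fixed block. The 12 smolts are in both fits, so these shares do not come from independent tests. Hatchery fish 8 was not among those 12 smolts, so leaving it out could change only the error of this fit and not the difference. Without the 2 fish 5424 were called (32.3%). The 4 named probes had differences of 4.59 (SE 0.63) for C092R077, 4.15 (SE 0.6) for C036R006, -5.92 (SE 1.61) for C192R100 and -6.43 (SE 0.87) for C011R100, with limma adjusted p between 1.92e-07 and 0.00508. The slide correlation in the fit with a random block was 0.019, and over all arrays by group it was 0.1. The value of 0.019 comes from slides within an origin, so it does not measure a slide difference that goes with origin.

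**Figure D4:**
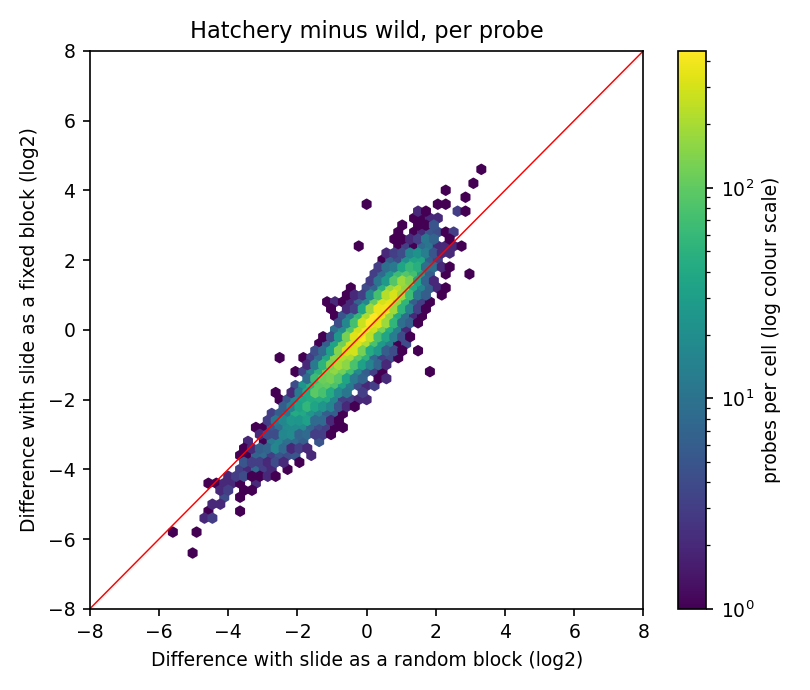
Hatchery minus wild difference of each probe on the log2 scale with slide as a random block over 20 fish (horizontal axis) and as a fixed block over 226 arrays (vertical axis), with colour giving the number of probes per cell and the line marking equal values. The median size of the difference was 0.56 with the random block and 0.68 with the fixed block.

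Empty cells were compared as well, since they fill 49.9% of the table and the rule that emptied them is not given in the sources used here. Of 9287 probes measured in 4 to 16 of the 20 fish, 5 differed in how often they were measured (Fisher's exact test, adjusted p below 0.05, 0.0538%), and all 5 were measured in 10 hatchery smolts and in 0 wild smolts. Over the 22834 probes measured in 1 to 19 fish the count was 5 as well (0.0219%). They include C032R044 and C035R087 (Fisher's exact test, adjusted p = 0.0201 each). Of the 9287 probes, 833 had an unadjusted p below 0.05, with 531 measured more often in hatchery smolts and 302 more often in wild smolts. Over all 9287 the balance was the other way, with 3932 measured more often in hatchery smolts and 4173 more often in wild smolts. Without the 2 fish 52 probes were called as measured more often in hatchery smolts and 38 more often in wild smolts (0.969%).

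The question whether hatchery and wild smolts also part elsewhere could be put to the Fraser stock, where the 9 Chehalis hatchery smolts were set against the 7 Salmon River wild smolts. There the rivers differ along with the origin, and the groups shared no slide. Fork length was 11.6 ± 0.42 cm in the Chehalis and 10.6 ± 1.23 cm in the Salmon River smolts. Body size was not entered in this fit, so its part was not tested. Of 16797 probes, 1751 were higher and 1789 lower in Chehalis hatchery smolts (21.1%). Of the 9504 Capilano calls 2357 were also called there (24.8%), which is 66.6% of the Fraser calls, beside 56.6% of all probes tested that were called in the Capilano fish, and 2195 of the 2357 (93.1%) had the same direction. Among Capilano calls 78.1% had the same sign in the Fraser fish, against 59.6% of the other probes. The group means compared share no fish, but all fish share the reference pool. The Fraser difference came from a fit that also held the Capilano smolts. The error of each probe was therefore estimated with the Capilano smolts included, and the overlap of calls is not one of independent tests. The Fraser fish were not tested on their own.

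Of the 4 probes above, 3 were called in the Fraser fish with the Capilano sign. C011R100 averaged -2.52 ± 0.62 in 9 Chehalis hatchery smolts and 1.09 ± 1.04 in 7 Salmon River wild smolts (log2 difference -3.57, SE 0.78, limma adjusted p = 0.0012), and the groups did not overlap. C192R100 differed by -2.71 (SE 0.99, limma adjusted p = 0.0432) and C092R077 by 1.39 (SE 0.51, limma adjusted p = 0.047). C036R006 differed by 0.94 and was not called (SE 0.54, limma adjusted p = 0.204). The largest Fraser difference was that of C002R063, at 2.6 ± 0.72 in Chehalis hatchery smolts and -4.91 ± 2.12 in Salmon River wild smolts, where the Capilano difference was 3.02 (SE 0.66, limma adjusted p = 0.000626). The Capilano difference of C002R063 was 1.64 and no longer called when slide entered as a fixed term (SE 1.42, limma adjusted p = 0.401). C128R147 differed by -4.12 in the Fraser fish and by -2.65 in the Capilano fish, both called, and with slide as a fixed block its Capilano difference was -3.37 and was not called (SE 1.73, limma adjusted p = 0.136).

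The Capilano difference itself departed from the Fraser one in 1465 probes of 16797 (8.72%), 676 with a higher and 789 with a lower value in the Capilano fish, and in 2888 (17.2%) without the 2 fish. C035R008 was the most extreme, at -6.23 (SE 0.96, limma adjusted p = 0.000169). It ran from -2.18 to 2.68 with a median of 1.51 in Capilano hatchery smolts and from -1.87 to 3.73 with a median of 2.1 in Capilano wild smolts, which did not differ by the test (log2 difference -0.95, SE 0.61, limma adjusted p = 0.191). In the Fraser fish it averaged 2.36 ± 1.31 in Chehalis hatchery smolts and -2.99 ± 1.71 in Salmon River wild smolts, and it averaged -3.55 ± 0.84 in Puntledge hatchery smolts. C229R065 had opposite signs in the pairs of groups. It was lower in Capilano hatchery smolts, at -0.27 ± 1.08 against 1.7 ± 1.55 in Capilano wild smolts, and higher in Chehalis hatchery smolts, at 1.81 ± 0.77 against -2.13 ± 1.92 in Salmon River wild smolts (difference of the differences -5.96, SE 0.91, limma adjusted p = 0.000169). With fork length as a covariate its Capilano difference was -0.98 (SE 0.52, limma adjusted p = 0.118) and with slide as a fixed block -2.02 (SE 1.17, limma adjusted p = 0.186), neither of them called. C053R105 was lower in hatchery smolts in both pairs, by 1.83 on the log2 scale in the Capilano fish (log2 difference -1.83, SE 0.39) and by more in the Fraser fish (log2 difference -5.14, SE 0.49), and the difference of 3.29 passed the test (SE 0.65, limma adjusted p = 0.00172). C020R077 was higher in Capilano hatchery smolts by 2.65 (SE 0.45) and differed by -0.17 in the Fraser fish (SE 0.51), a difference of 2.79 (SE 0.68, limma adjusted p = 0.00946).

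At sea, fish of the same stock label showed no such division. Among the 13 hatchery and 17 wild fish of summer and fall, no probe of 16802 passed limma's test for origin (0%), and 386 had an unadjusted p below 0.05. The median size of the difference was 0.09 there, against 0.56 in the Capilano smolts. The Capilano difference departed from the one at sea in 3430 probes with a higher and 3535 with a lower value (41.5%), and in 8420 (50.1%) without the 2 fish. The differences at sea come from a fit with summer and fall as separate terms, so they need not equal the differences of the plain means. That fit also held the Capilano smolts, so the error of each probe was estimated over both sets of fish. The ocean fish were not tested on their own. C192R100 averaged -0.19 ± 1.47 in hatchery and -0.29 ± 1.82 in wild fish at sea (log2 difference -0.04, SE 0.56), and C011R100 averaged -2.86 ± 0.58 in hatchery and -2.62 ± 0.58 in wild fish at sea (log2 difference -0.21, SE 0.48). C011R100 was thus below the pool at sea in both origins, as it was in the Capilano hatchery smolts. C092R077 differed at sea by -0.06 (SE 0.29) and C137R052 by 0.01 (SE 0.29), while C137R052 was higher in Capilano hatchery smolts by 2.93 (SE 0.46, limma adjusted p = 3.49e-05). These were other fish, sampled later, and the hatcheries and rivers behind the stock label are not given per fish. Hatchery and wild fish at sea shared 6 slides, while the Capilano origins shared none. Fork length at sea was 22.5 ± 4.02 cm in hatchery and 19.8 ± 3.5 cm in wild fish, and it was not entered in this fit. What the slides and sizes contribute to the contrast with the Capilano smolts was not tested.

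Fish of the ocean spring, the next stage in the series and close in fork length at 11.3 ± 1.07 cm, lay nearer the hatchery smolts. Their stock labels differ from that of the Capilano smolts. The 9 hatchery smolts other than fish 8 correlated with the spring mean at 0.58 to 0.69, and the 9 wild smolts other than fish 1 at -0.16 to 0.1. Hatchery fish 8 stood at 0.11 and wild fish 1 at 0.59. Capilano hatchery smolts differed from spring fish in 1098 probes with a higher and 888 with a lower ratio (11.8%), and Capilano wild smolts in 3698 higher and 3414 lower (42.3%). Without the 2 fish the counts were 1971 (11.7%) for hatchery smolts and 7673 (45.7%) for wild smolts. Both contrasts share the 14 spring fish and are set side by side only. All spring fish were wild, and none of the slides of the hatchery smolts held spring fish, while 1 slide of the wild smolts did.

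Single probes followed several patterns against the spring fish. C011R100 did not pass the test between hatchery smolts and spring fish (log2 difference -0.07, SE 0.72, limma adjusted p = 0.964) and was higher in wild smolts than in spring fish by 5.18 (SE 0.72, limma adjusted p = 4.04e-06). C036R006 was the reverse, higher in hatchery smolts than in spring fish by 4.22 (SE 0.43, limma adjusted p = 2.54e-08) and by 1.02 in wild smolts, which did not pass (SE 0.43, limma adjusted p = 0.0546). C035R008 was higher in both, by 4.7 in hatchery smolts and by 5.62 in wild smolts. C105R058 was lower in both, with log2 differences of -3.19 in hatchery smolts (SE 0.4) and -3.18 in wild smolts (SE 0.41), and between the origins it differed by -0.02 (SE 0.27). C053R105 and C036R054 were the deepest falls of hatchery smolts against spring fish (log2 differences -3.79 and -3.58), and in wild smolts they differed from spring fish by -1.87 and -2.53, all called. C137R126 was the deepest fall of wild smolts against spring fish (log2 difference -3.3), and in hatchery smolts it differed by -1.44 (SE 0.47, limma adjusted p = 0.0381).

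Against the mean of the other smolts of 2009, from the Chehalis, Puntledge and Salmon Rivers, it was the hatchery smolts that stood off. Capilano hatchery smolts were higher in 3798 and lower in 4309 probes of 16797 (48.3%), and Capilano wild smolts were higher in 1208 and lower in 1230 (14.5%). Without the 2 fish the counts were 8657 (51.5%) and 3776 (22.5%). These contrasts share the other smolts too. By groups, the mean profile of the Capilano hatchery smolts correlated with that of Chehalis hatchery smolts at 0.7, Puntledge hatchery smolts at 0.38 and Salmon River wild smolts at -0.08. That of the Capilano wild smolts correlated with Chehalis hatchery smolts at 0.38, Puntledge hatchery smolts at 0.32 and Salmon River wild smolts at 0.57. With the summer and fall fish of the S_Main label, the Capilano hatchery smolts correlated at 0.07 for hatchery and 0.13 for wild fish at sea, and the Capilano wild smolts at 0.45 for hatchery and 0.43 for wild fish at sea. Over the 4766 probes higher in Capilano hatchery than wild smolts, the median difference from the other smolts was 0.57 in the hatchery fish and -0.27 in the wild fish, beside -0.04 and -0.02 over all probes tested. Over the 4738 lower probes it was -0.71 in the hatchery fish and 0.32 in the wild fish. The origin difference chose these probes, so their medians describe it and test nothing.

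**Figure D5:**
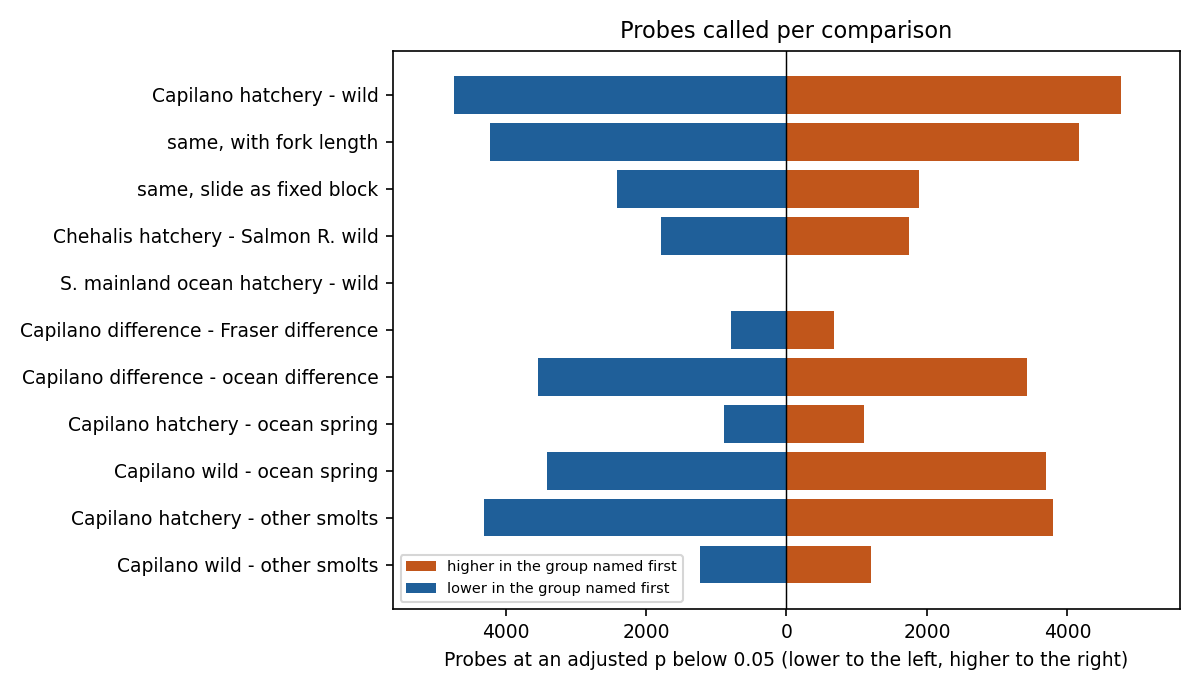
Number of probes at a limma adjusted p below 0.05 in each of 11 comparisons, with probes lower in the group named first to the left of 0 and higher ones to the right. Hatchery against wild smolts of the Capilano River gave 9504 calls, and hatchery against wild fish at sea in the same stock label gave 0.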

How the data were processed

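Liver RNA was measured on 2-colour arrays, and per the labels' protocols fish RNA and the pooled reference carried different Alexa dyes, with no dye swap named. Values were taken as deposited by the authors and read as log2 ratios from their range of -10.13 to 10.0 and the mean-variance slope. The second deposited table, with unit recorded as other because its header is numeric, held the same values for all 43567 probes plus 18 control rows. The scanner, the normalization and the rule for empty cells were not found in the labels or file headers.

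Probes measured on at least 80% of the 226 arrays were tested (16802) with lmFit and eBayes of limma 3.58.1 in R 4.3.3. Slide was a random block (duplicateCorrelation), and Benjamini-Hochberg adjustment ran over all probes tested at a threshold of 0.05. A few probes without values in a group dropped out of a fit, so the number tested varies. Size and array measures were compared by two-sided permutation tests of the means (100000 resamples, SciPy 1.17.1), and empty cells by Fisher's exact test over probes measured in 4 to 16 fish. Replicate numbers follow the order of deposit and pair no fish. Each array was labelled as a separate fish, and the number of arrays limits the precision. Wild fish 3 and 4 carry the same fork length (10.4 cm) and mass (10.17 g) and were counted as separate fish. Whether a record was repeated was not tested. A value after ± is the SD between fish.

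The fish, the lists and the tests were chosen with earlier results of these data known. Probes named were, per comparison, the 2 largest called differences in each direction among probes measured on every array of the comparison, and for origin they also had to be called with fork length. Gene and cell type lists drawn up for the liver could not be used without gene names. The origin fit was tested on simulated data, which checks the fitting steps only. Those data had no slide difference set to follow origin and no fish placed with the other origin. Alternatives covered the slide block, filters, normalization, covariates and the fish left out.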

Additional observations from a re-analysis of the deposited data

Results flagged for a closer look

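Of 88 groups of values checked, 11 held a sample far from the others by Dixon's criterion, of which chance marks about 1 in 20, and most of them were hatchery fish 8 or wild fish 1. Hatchery fish 8 had the lowest correlation with the other hatchery smolts (0.34), the lowest correlation with the spring mean (0.11), the narrowest spread of ratios (SD 0.66) and the highest ratio of C192R100 among hatchery smolts (0.41). Wild fish 1 had the lowest correlation with the other wild smolts (0.02), the highest with the hatchery smolts (0.78), the highest with the spring mean (0.59) and the lowest ratio of C192R100 among wild smolts (-3.61). The mean of the control rows was 0.29 in hatchery fish 8, within 0.24 to 0.7 over the hatchery smolts, and 0.27 in wild fish 1, the highest of the wild smolts. Other single fish were wild fish 4 in C035R008 (-1.87), a Salmon River wild smolt in C036R006 (1.19) and a Chehalis hatchery smolt in C105R058 (-0.80).

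The origin difference varied between sets of fish. It departed from the Fraser one in 1465 probes, with the largest values for C053R105 (3.29), C020R077 (2.79), C035R008 (-6.23) and C229R065 (-5.96). It departed from the one at sea in 6965 probes, with the largest values for C092R077 (3.52), C137R052 (2.99), C192R100 (-5.54) and C011R100 (-5.05). The control rows, which entered the comparisons of probes only as a covariate, had a mean log2 ratio of 0.513 in hatchery smolts, against 0.123 in wild smolts.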

How the results depend on the processing

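No paired analysis was possible because the labels give no replicate numbers that pair hatchery and wild fish. The 9504 origin calls became 4300 with slide as a fixed block over all arrays (5424 without hatchery fish 8 and wild fish 1), 74 with condition factor and 25 with the control row mean as a covariate (5362 and 4964 without the 2 fish). The calls of the fit with fork length became 4342 with slide as a fixed block. The slope on fork length had 4 calls, all negative, without the shortest fish. Without hatchery fish 8 and wild fish 1, calls became 2888 for the Capilano minus Fraser difference, 3776 for wild smolts against the other smolts and 90 for the presence of a value. Leaving out each slide gave 7763 to 9649 origin calls and leaving out each fish 8957 to 10332. The other 71 counts and size differences stayed within 1.5 times or on their side of the threshold. Among them were the lower counts of origin calls with log2 mass as a covariate (6665) and in fish on slides with ocean fish (7062). The 71 were not all separate checks. The second deposited table holds the same values, so its count could not differ. Slides 1, 2 and 9 held 1 Capilano fish each, so leaving them out repeated leaving out that fish. Of the probes named for a comparison, none changed sign in that comparison under the alternatives run, and 9 calls were lost. These were the origin differences of the 4 probes with condition factor and with the control row mean (3.49 for C092R077, 3.64 for C036R006, -3.38 for C192R100 and -4.96 for C011R100 with the control row mean, limma adjusted p between 0.0673 and 0.131), and that of C036R006 with condition factor without the 2 fish (2.37, limma adjusted p = 0.0543). Among the probes named for other comparisons, the fixed slide block ended the Capilano call of C002R063 (1.64), C128R147 (-3.37), C137R126 (1.28) and C229R065 (-2.02). The cause was not tested.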
